A study of Mus musculus with 8 samples.

Results

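The neurexins, neuroligins and leucine-rich repeat transmembrane (LRRTM) proteins are adhesion molecules that organise synapses, and 9 of their genes are described here: Nrxn2, Nrxn3, Nlgn1, Nlgn2, Nlgn3, Lrrtm1, Lrrtm2, Lrrtm3 and Lrrtm4. They were taken as a list of gene symbols, and all 9 were found among the 32542 genes of the deposited tables. RNA was sequenced from GFP-positive cells sorted from the amygdala of mouse embryos at stage E16.5 (days after the vaginal plug), a population labelled as amygdalar intercalated cells, which are small clusters of GABAergic neurons around the basolateral amygdala. The 4 knockout libraries came from Tshz1GFP/RA embryos and the 4 control libraries from Tshz1GFP/+ embryos, all on an outbred background, so both genotypes carried the GFP allele and the controls kept 1 allele without GFP. Each library was made from tissue of several embryos of 1 genotype that was pooled before the sort, and what the RA allele lacks of Tshz1 is not in the labels. A knockout and a control library share each title prefix (NX, NY, QT and RM), and the labels do not say what the prefix marks.

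Neurexins sit mainly in the presynaptic membrane and bind partners across the synaptic cleft, among them the neuroligins and the LRRTM proteins of the postsynaptic side. Each neurexin gene makes a long alpha form from an upstream promoter and a shorter beta form from an internal promoter. Neuroligin-2 is found mainly at inhibitory synapses and neuroligin-1 mainly at excitatory ones, neuroligin-3 occurs at both, and the LRRTM proteins are known chiefly from excitatory synapses. Intercalated cells are inhibitory neurons that receive glutamatergic input from the cortex and the basolateral amygdala.

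Library totals ran from 6384571 to 13295689 expected counts in knockout libraries and from 5785612 to 14535867 in control libraries. Tshz1, a zinc finger transcription factor and the disrupted gene, had 121 (NX), 61.5 (NY), 78.0 (QT) and 55.8 CPM (RM) in knockout libraries, against 491 (NX), 239 (NY), 456 (QT) and 337 CPM (RM) in control libraries, where CPM is the expected count scaled to library size with TMM composition factors. It fell by 2.27 on the log2 scale (SE 0.30) with a Benjamini-Hochberg adjusted p of 0.0388 over 14157 genes (edgeR, quasi-likelihood), the direction that the genotype labels give. It stayed lower but was no longer called when any 1 library other than knockout NX or control NY was left out (log2 fold change -2.55 to -2.12 over all 8 such fits). All 7 intercalated cell markers, Tshz1 among them, were tested; all 7 were fitted lower in the knockout, 1 of them called (Tshz1), and their summed level was 1333 to 2053 CPM in knockout libraries and 1793 to 3231 CPM in control libraries. All 7 GABAergic markers were tested too, and their sum was 1785 to 1949 CPM in knockout libraries and 1622 to 2467 CPM in control libraries. Of these 7, 6 were fitted lower in the knockout (median log2 fold change -0.12) and 0 were called. Markers listed for other cells were detected. The 12 cycling and progenitor markers, 11 of them tested, summed to 312 to 1697 CPM in knockout and 216 to 1069 CPM in control libraries. The 9 pallial glutamatergic markers summed to 828 to 1599 CPM in knockout and 618 to 1119 CPM in control libraries. Most of that sum was Bcl11b, with a mean of 826 CPM in knockout and 594 CPM in control libraries. The sum thus follows mainly this gene and does not measure pallial cells. Whether the Bcl11b RNA came from pallial cells or from the sorted neurons was not tested. Of the tested markers, 8 of 11 in the cycling and progenitor list and 5 of 9 in the pallial list were fitted higher in the knockout. Glial and vascular markers were fitted mostly lower: 8 of 8 tested microglia markers (median log2 fold change -1.05), 3 of 3 vascular (-0.97), 3 of 4 astrocyte (-0.40) and 4 of 5 oligodendrocyte lineage markers (-0.41). The microglia markers summed to 8.37 to 48.2 CPM in knockout and 4.64 to 113 CPM in control libraries, the vascular markers to 2.72 to 12.6 CPM in knockout and 1.30 to 51.9 CPM in control libraries. The astrocyte markers summed to 13.5 to 73.9 CPM in knockout and 1.12 to 76.7 CPM in control libraries, the oligodendrocyte lineage markers to 2.79 to 53.0 CPM in knockout and 0.557 to 57.9 CPM in control libraries. None of these 6 lists had a called gene, and none of their markers was at 0 in all 8 libraries. The part of such cells in the values given here was not tested. In such bulk libraries, fewer cells of a type and less RNA per cell cannot be told apart.

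All 9 genes passed the filter on low counts, and none of them passed the test for a difference between genotypes. In edgeR's quasi-likelihood test 0 of 9 were called at an adjusted p under 0.05, where 0.0353% of all tested genes were called, and 0 of 9 reached an unadjusted p under 0.05, where 3.62% of all tested genes did. DESeq2 and limma-voom also called 0 of 9. The knockout and control ranges overlapped for every one of the 9, while 2.58% of all tested genes had ranges apart. The median log2 fold change of the 9 was 0.02 (5 fitted higher and 4 lower in the knockout), against -0.01 over all tested genes. The adjusted p in edgeR was 0.9997 for each. What the libraries could resolve differed from gene to gene: the 95% interval of the log2 fold change was narrowest for Nlgn3, from -0.47 to 0.29, and widest for Lrrtm1, from -0.78 to 1.33. A change of 2-fold in either direction lies outside the interval for Nrxn2, Nrxn3, Nlgn2, Nlgn3 and Lrrtm2. An increase of 2-fold lies inside it for Nlgn1, Lrrtm1, Lrrtm3 (1.01 at the upper bound) and Lrrtm4.

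**Figure D1:**
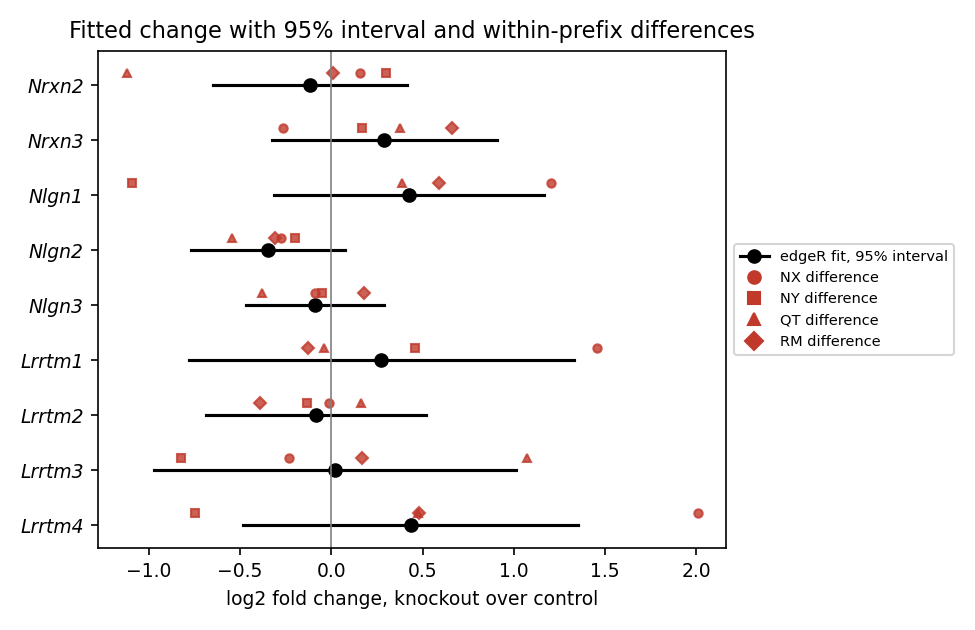
Fitted log2 fold change (knockout over control) of each gene with its 95% interval from edgeR (black, 4 libraries per genotype) and the difference in log2 CPM between the knockout and control library of each title prefix (red symbols). Every interval spans 0, and Nlgn2 is the gene whose 4 within-prefix differences all lie below 0. How many of all tested genes share that pattern was not counted.

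The genes differed far more from each other than between genotypes. On the deposited TPM scale, which is per transcript length, Nrxn3 stood highest at a mean of 341 TPM over the 8 libraries and ranked 205 among the tested genes. It exceeded Nlgn3, next in the order, by 2.75 ± 0.56 on the log2(TPM + 0.1) scale (SD over 8 libraries), and did so in 8 of 8. Nlgn3 (50.6 TPM) and Nlgn2 (43.7 TPM) lay close together, 0.24 ± 0.23 apart with Nlgn3 ahead in 6 of 8 libraries. Nlgn2 exceeded Nrxn2 (24.7 TPM) in 8 of 8 libraries, by 0.81 ± 0.43. Nrxn2 and Lrrtm2 (24.96 TPM) could not be ordered, since each was ahead in 4 of 8 libraries. From there Nlgn1 (15.9 TPM), Lrrtm1 (10.7 TPM), Lrrtm3 (10.6 TPM) and Lrrtm4 (6.72 TPM) followed, and each difference to the next gene in the order, from Lrrtm2 down to Lrrtm4, was smaller than its own SD.

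**Figure D2:**
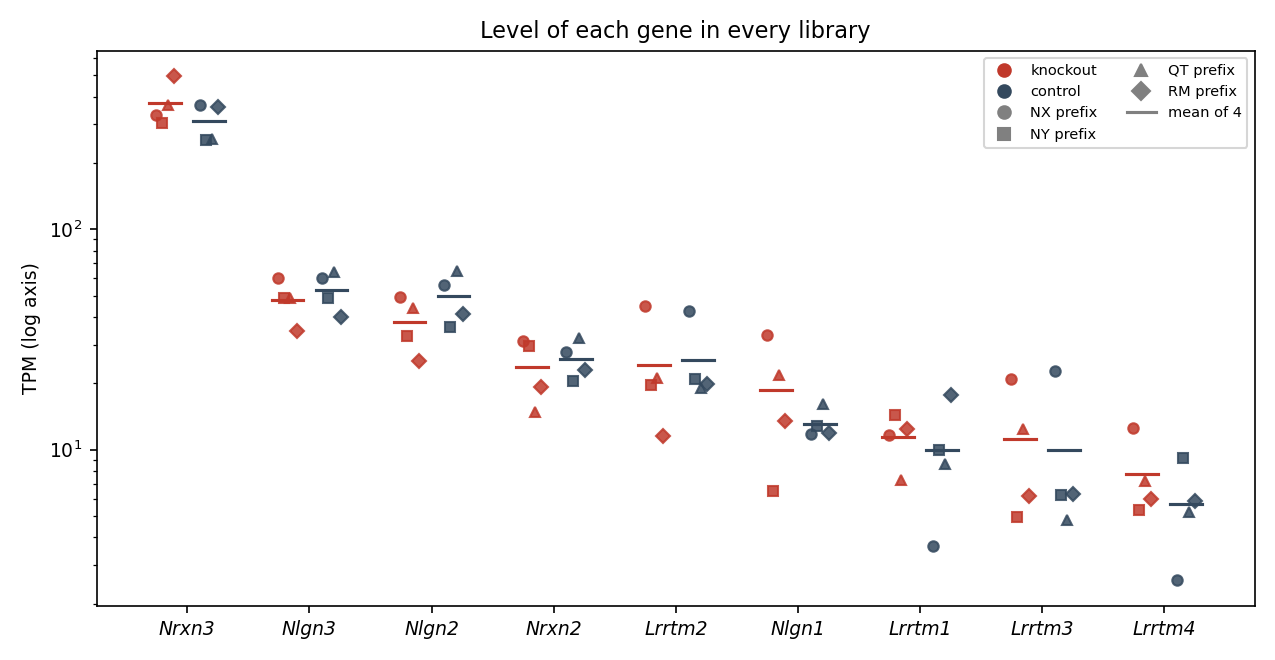
TPM of the 9 genes in every library on a log axis, genes ordered by mean level, knockout libraries (red) left of control libraries (dark) with a bar at the mean of 4. Nrxn3 lies between 255 and 496 TPM, apart from all others, and the spread widens towards the LRRTM genes.

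Nrxn3 encodes the neurexin that led among the 9 genes. It had 331 (NX), 302 (NY), 365 (QT) and 496 TPM (RM) in knockout libraries, against 365 (NX), 255 (NY), 256 (QT) and 358 TPM (RM) in control libraries. The knockout RM library was the high one, and the genotypes overlapped. Nrxn3 averaged 374 ± 85.8 TPM in knockout and 309 ± 61.5 TPM in control libraries (SD, n = 4 each), with a log2 fold change of 0.29 (SE 0.28) on the count scale. That value rests on the knockout RM library, at 1327 CPM against 597 to 661 CPM in the other knockout libraries: without it the log2 fold change was -0.05. The gene spans chromosome 12 from 88722876 to 90334935 on the plus strand (GRCm38, protein-coding), and Gm37980 overlaps its exons on the other strand, which counts without strand cannot separate.

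The starts of Nrxn3 are shown because its transcripts differ in start and in length. RSEM's length estimate for the gene, given further on, varied between libraries. The transcripts behind that estimate were not matched to GENCODE transcripts, so a link between starts and estimated length was not tested. RefSeq (GRCm38.p6) gives windows of 300 bases, 250 before and 50 after each start, for 6 of the 9 genes (Nrxn3, Nlgn1, Nlgn2, Lrrtm1, Lrrtm3 and Lrrtm4). The 3 windows of Nrxn3 follow in genome order, the farthest upstream at chr12:88794254-88794553, the middle one at chr12:88953140-88953439 and the internal one at chr12:89812233-89812532, all on the plus strand, 5′ to 3′, with each CG in capitals.
Nrxn3 farthest upstream start: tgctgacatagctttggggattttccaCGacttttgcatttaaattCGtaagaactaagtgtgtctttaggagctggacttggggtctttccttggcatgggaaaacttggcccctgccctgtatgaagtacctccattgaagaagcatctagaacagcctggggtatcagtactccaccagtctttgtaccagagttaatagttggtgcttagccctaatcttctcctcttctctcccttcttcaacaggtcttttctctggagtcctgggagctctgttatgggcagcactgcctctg
Nrxn3 middle start: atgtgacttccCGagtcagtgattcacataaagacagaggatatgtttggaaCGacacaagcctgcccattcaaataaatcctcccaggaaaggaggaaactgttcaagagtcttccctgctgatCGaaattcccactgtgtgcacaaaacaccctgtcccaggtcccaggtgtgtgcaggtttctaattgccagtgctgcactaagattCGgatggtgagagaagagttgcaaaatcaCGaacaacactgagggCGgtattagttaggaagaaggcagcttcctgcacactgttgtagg
Nrxn3 internal start: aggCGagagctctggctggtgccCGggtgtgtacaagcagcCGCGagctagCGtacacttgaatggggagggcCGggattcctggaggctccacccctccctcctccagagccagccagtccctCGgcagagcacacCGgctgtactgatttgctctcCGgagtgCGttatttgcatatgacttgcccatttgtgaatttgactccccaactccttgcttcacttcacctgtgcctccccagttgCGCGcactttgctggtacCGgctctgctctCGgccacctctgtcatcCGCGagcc
The internal window holds 16 CG, a motif that reads the same on both strands, the middle window 6 and the farthest upstream window 2. Of 32851 windows of this length around annotated starts, 33.0% hold at least 16, 56.4% at least 6 and 85.9% at least 2, with a median of 7. Farthest upstream is meant among these 3 windows only, since the annotated gene begins before them, at 88722876. The farthest upstream start may thus be the edge of an internal exon, in which case its CG count does not describe a promoter. Whether each window acts as a promoter in these cells, and which serves the alpha or the beta form, was not tested. The longest GENCODE coding transcript of the gene, with 7922 bases of exon, begins at the start in the first of these windows. One of 4634 bases begins within 50 bases of the middle start. Those of 3654 and 2699 bases both begin at the internal start, so length does not follow from the start alone. Another, of 3303 bases, begins at 89193106, outside the 3 windows.

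Nrxn2 encodes another neurexin and lay well below Nrxn3 in every library. It had 31.1 (NX), 29.4 (NY), 14.8 (QT) and 19.2 TPM (RM) in knockout libraries, against 27.6 (NX), 20.5 (NY), 32.0 (QT) and 23.0 TPM (RM) in control libraries. The knockout QT library was the lowest of the 8 in TPM and, at 37.2 against 59.9 to 81.2 CPM in the other 7, in CPM. Nrxn2 was fitted 0.12 lower on the log2 scale (SE 0.25), with the knockout higher in 3 of 4 prefixes, and without the knockout QT library it was fitted 0.07 higher. The gene (chromosome 19, plus strand, 6418731 to 6544169) is one where Slc22a12 and Gm14964 overlap its exons on the other strand. Of the TPM of these 2 neurexin genes, Nrxn3 held 93.7 ± 2.85% in knockout and 92.1 ± 2.22% in control libraries (SD, n = 4 each).

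Nlgn2 encodes the neuroligin of inhibitory synapses. It had 49.2 (NX), 32.9 (NY), 44.0 (QT) and 25.4 TPM (RM) in knockout libraries, against 56.1 (NX), 36.2 (NY), 64.8 (QT) and 41.2 TPM (RM) in control libraries. The knockout value was the lower one in each of the 4 prefixes, while the genotypes as wholes overlapped. How many of all tested genes were lower in all 4 prefixes was not counted, so nothing is concluded from that pattern. In CPM the means were 104 ± 9.71 in knockout and 132 ± 24.8 in control libraries, a log2 fold change of -0.35 (SE 0.20, 95% interval -0.77 to 0.08, edgeR unadjusted p = 0.0996). Over 20 alternative analyses the fitted value lay between -0.45 and -0.23 with adjusted p no lower than 0.694. With the prefix as a block, the edgeR unadjusted p was 0.0513. Slc32a1, the vesicular GABA transporter of the inhibitory presynapse, also had its lower value in the knockout library of all 4 prefixes, without being called. No other annotated exon overlaps Nlgn2 (chromosome 11, minus strand, 69823122 to 69837784).

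Nlgn3, whose protein occurs at inhibitory and excitatory synapses, was the steadiest of the 9 genes. In CPM its coefficient of variation over the 8 libraries was 8.78%, against 19.5% to 51.5% for the other 8 genes. It had 97.4 (NX), 101 (NY), 93.9 (QT) and 111 CPM (RM) in knockout libraries, against 104 (NX), 104 (NY), 122 (QT) and 98.3 CPM (RM) in control libraries. These ranges overlapped, and the log2 fold change was -0.09 (SE 0.18). On the X chromosome (plus strand, 101299168 to 101325963), exons of Gm21986 overlap those of Nlgn3 on the same strand. RSEM gave Nlgn3 whole counts, within 0.005, in 6 of 8 libraries. Lrrtm3 had them in 1 of 8 and each other gene of the set in 8 of 8. Whole counts do not tell which strand a read came from.

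Nlgn1, the neuroligin of excitatory synapses, was the lowest neuroligin and spread widely among the knockout libraries. It had 33.0 (NX), 6.48 (NY), 21.9 (QT) and 13.4 TPM (RM) in knockout libraries, against 11.8 (NX), 12.8 (NY), 16.1 (QT) and 11.9 TPM (RM) in control libraries. The 4 control libraries lay within the knockout range on both scales. In TPM the knockout NX and QT libraries were above them all, in CPM the knockout RM library as well, and the knockout NY library was below them on either scale. The coefficient of variation in CPM was 44.4% in knockout and 13.6% in control libraries, a difference that was not tested. The log2 fold change was 0.43 (SE 0.34, 95% interval -0.32 to 1.17). The value moved with single libraries in both directions. Without the knockout NX library it was 0.22 (edgeR unadjusted p = 0.551), and without both NX libraries 0.13. Without the knockout NY library it was 0.71 (edgeR unadjusted p = 0.0113, adjusted p = 0.971), and without both NY libraries 0.73. Over all alternatives the adjusted p of Nlgn1 ran no lower than 0.854. Exons of Nlgn1 (chromosome 3, minus strand, 25426215 to 26332460) are overlapped on the opposite strand by A830092H15Rik.

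Of the TPM of the 3 neuroligin genes, Nlgn3 held 46.8 ± 6.12% in knockout and 45.99 ± 3.04% in control libraries. Nlgn2 held 36.2 ± 1.89% in knockout and 42.5 ± 3.61% in control libraries, and Nlgn1 17.0 ± 6.78% in knockout and 11.5 ± 1.79% in control libraries (SD, n = 4 each). Nlgn3 and Nlgn2 thus made up most of the neuroligin transcript of both genotypes, and the shares are not independent of each other, since they sum to 100% in each library.

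Lrrtm2, a neurexin ligand, was the leading LRRTM gene. It had 44.9 (NX), 19.7 (NY), 21.2 (QT) and 11.6 TPM (RM) in knockout libraries, against 42.5 (NX), 20.9 (NY), 19.1 (QT) and 19.9 TPM (RM) in control libraries. The NX library was the high one in both genotypes, and the log2 fold change was -0.08 (SE 0.28). Lrrtm3 shared this pattern, at 21.0 (NX), 4.96 (NY), 12.4 (QT) and 6.19 TPM (RM) in knockout libraries and 22.7 (NX), 6.21 (NY), 4.78 (QT) and 6.32 TPM (RM) in control libraries, with a log2 fold change of 0.02 (SE 0.46). The NX libraries also had the lowest summed level of the 11 tested cycling and progenitor markers in their genotype, 312 CPM against 1331 to 1696 in the other knockout libraries and 216 CPM against 939 to 1067 in the other control libraries. Whether these levels are linked was not tested.

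Lrrtm1 and Lrrtm4 were low in the control NX library. Lrrtm1 had 11.7 (NX), 14.4 (NY), 7.31 (QT) and 12.4 TPM (RM) in knockout libraries, against 3.65 (NX), 9.98 (NY), 8.59 (QT) and 17.7 TPM (RM) in control libraries. Lrrtm4, the least abundant of the 9, had 12.5 (NX), 5.33 (NY), 7.19 (QT) and 5.95 TPM (RM) in knockout libraries, against 2.55 (NX), 9.17 (NY), 5.21 (QT) and 5.85 TPM (RM) in control libraries. That library was the lowest of the 8 for both genes. The log2 fold change of Lrrtm1 was 0.27 (SE 0.49), and -0.03 without the control NX library. That of Lrrtm4 was 0.43 (SE 0.42), 0.17 without the control NX library and 0.78 without the control NY library. Without both libraries of a prefix it was 0.05 (NX) and 0.91 (NY). The control NX library was also the lowest of the 8 in the tested markers of each other cell type listed. The 9 pallial glutamatergic markers summed to 618 CPM there, against 671 to 1119 CPM in the other control libraries. Bcl11b makes up most of that sum, and the mean log2 CPM of the 9 markers differed more. It was 2.23 in the control NX library, against 5.05 to 5.48 in the other control libraries. The oligodendrocyte lineage markers summed to 0.557 CPM against 33.5 to 57.9 in the other control libraries, and the astrocyte markers to 1.12 CPM against 34.4 to 76.7. The microglia markers summed to 4.64 CPM against 43.2 to 107, and the vascular markers to 1.30 CPM against 2.90 to 26.6. The part of such cells in the Lrrtm1 and Lrrtm4 values was not tested. The depth of these values was modest, with 65 to 249 expected counts per library for Lrrtm1 and 66 to 250 for Lrrtm4.

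Among the 4 LRRTM genes, Lrrtm2 held 42.6 ± 7.51% of their TPM in knockout and 48.8 ± 8.38% in control libraries. Lrrtm1 held 23.8 ± 11.2% in knockout and 21.3 ± 12.5% in control libraries. Lrrtm3 held 19.3 ± 6.55% in knockout and 17.7 ± 9.42% in control libraries, and Lrrtm4 14.3 ± 1.88% in knockout and 12.3 ± 6.73% in control libraries (SD, n = 4 each). The family's make-up varied between libraries, with Lrrtm1 between 5.11% and 35.6%.

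LRRTM genes are nested in genes of the alpha-catenins, which link cadherins to actin. In GRCm38, Lrrtm1 (chromosome 6, 77242689 to 77257791, plus strand) lies within Ctnna2, Lrrtm2 (chromosome 18, 35209003 to 35215024, minus strand) within Ctnna1 and Lrrtm3 (chromosome 10, 63928472 to 64090277, minus strand) within Ctnna3, each on the strand opposite to its host. Exons of Lrrtm2 and Ctnna1 overlap, so counts without strand cannot separate them there, while exons of the other nested genes do not overlap a host exon. The levels of hosts and nested genes differed. Ctnna3 had 0 counts in 7 libraries and 1 in the control NX library, whereas Lrrtm3 had 88 to 395 expected counts in knockout and 70 to 509 in control libraries. Ctnna2 stood at 85.9 ± 18.1 TPM in knockout and 78.1 ± 10.2 TPM in control libraries, far above Lrrtm1. Ctnna1 had its lowest values in the NX libraries (10.8 TPM knockout, 6.98 TPM control), where Lrrtm2 was highest. Ctnna1 and Ctnna2 were not called. Lrrtm4 (chromosome 6, 80018877 to 80810143, plus strand) lies outside any alpha-catenin gene, and Gm4409 overlaps its exons on the other strand.

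RSEM also reports, for each gene and library, a mean transcript length weighted by the abundances it estimated for the gene's transcripts, so that a shift between long and short transcripts moves this length. For Nrxn3 it was 4311 (NX), 4044 (NY), 3694 (QT) and 3276 bases (RM) in knockout libraries, against 4393 (NX), 4112 (NY), 4057 (QT) and 3732 bases (RM) in control libraries. The knockout library was the shorter one in each of the 4 prefixes, but the genotypes overlapped. Means were 3831 ± 448 bases in knockout and 4074 ± 271 bases in control libraries (exact two-sided permutation p = 0.343 over 70 splits, n = 4 each). The splits ignored the prefix, so this p does not measure the difference within prefixes. Of the 7491 tested genes whose length varied by more than 25 bases, 5.42% were shorter in the knockout library of all 4 prefixes. The libraries kept the same order in both genotypes, from NX as the longest to RM as the shortest. The mean length of all tested genes weighted by TPM was also lowest in the RM libraries, at 1663 bases in knockout RM and 1839 bases in control RM, against 1951 to 2315 in the other 6.

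For Lrrtm3 this length was 3147 (NX), 2820 (NY), 3129 (QT) and 2865 bases (RM) in knockout libraries, against 3168 (NX), 3811 (NY), 3770 (QT) and 3243 bases (RM) in control libraries. The knockout lengths all lay below the control lengths, with means of 2990 ± 172 bases in knockout and 3498 ± 339 bases in control libraries (exact two-sided permutation p = 0.0286, the smallest that 4 against 4 can give). It was 1 of 7 lengths tested among the 9 genes, and the other 6 had exact permutation p from 0.171 to 0.971. Lengths of the genotypes lay apart for 2.15% of those 7491 genes. Lrrtm3 had as few as 70 expected counts in a library, and its counts were whole, within 0.005, in 1 of 8. The deposited files list 2 transcripts for Lrrtm3, where GENCODE has 1 coding transcript of 3896 bases. This comparison of lengths was chosen after the files had been seen. The mean length of Nrxn2 was 4973 ± 326 bases in knockout and 5154 ± 61 bases in control libraries (exact permutation p = 0.314, n = 4 each). For Lrrtm2, with 1 transcript in the deposited files, it was 5673 bases in every library.

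**Figure D3:**
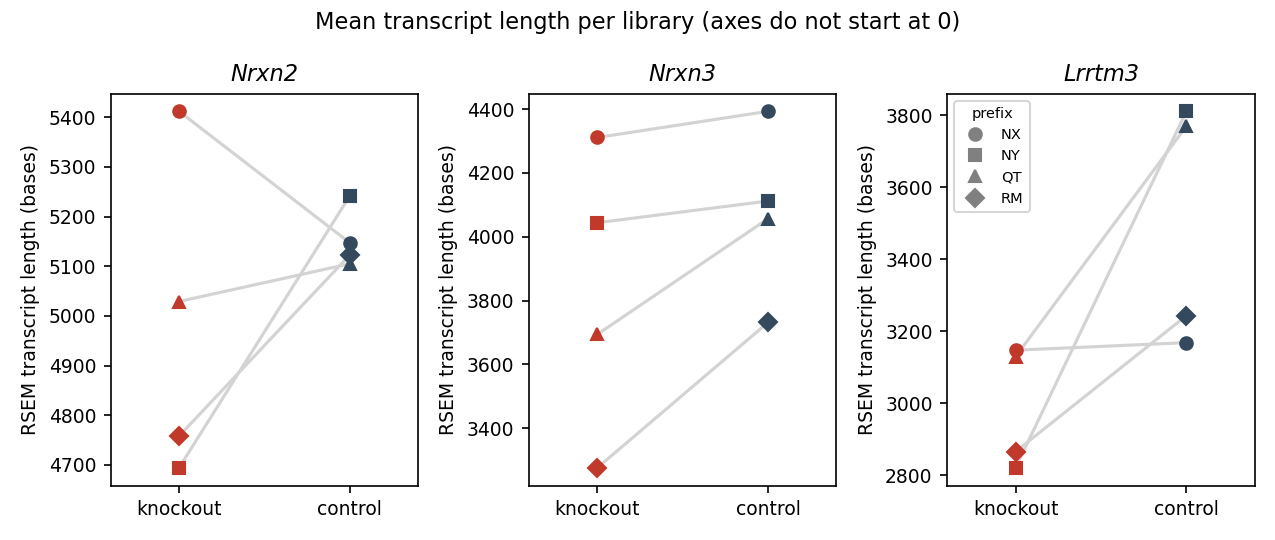
RSEM's mean transcript length in bases (axes not starting at 0) for Nrxn2, Nrxn3 and Lrrtm3 in each library, knockout left of control, with grey lines joining libraries of 1 title prefix. Nrxn3 is shorter in the knockout in each prefix with overlapping genotypes (5.42% of genes with a varying length are shorter in all 4), and the Lrrtm3 lengths of knockout libraries, 2820 to 3147 bases, lie below those of control libraries, 3168 to 3811 bases.

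Genes that act with these organisers had no call either. Across 6 lists of synaptic genes and the alpha-catenin genes, 124 distinct genes were tested and 0 were called in edgeR, with 0 in DESeq2 and limma-voom as well. At an unadjusted p under 0.05 there were 2 higher and 4 lower in the knockout, 4.84% against 3.62% of all tested genes. The genotypes did not overlap for 4 of the 124 (Clstn1, Igsf21, Lrrc4c and Elavl4). That is 3.23%, against 2.58% of all tested genes. Their median log2 fold change was -0.11, with 47 fitted higher and 77 lower, against -0.01 over all tested genes.

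Among the partners that bind neurexins or neuroligins, 16 of 21 were tested with a median log2 fold change of -0.17. Clstn1, which encodes the adhesion protein calsyntenin-1, had the smallest p. It had 92.3 (NX), 92.4 (NY), 57.8 (QT) and 81.7 CPM (RM) in knockout libraries, against 108 (NX), 106 (NY), 135 (QT) and 123 CPM (RM) in control libraries, with no overlap. Its log2 fold change was -0.54 (SE 0.21, edgeR adjusted p = 0.9997). All 35 other trans-synaptic adhesion genes were tested, with a median of -0.24. Igsf21, which encodes a neurexin-2 ligand of inhibitory synapses, had 8.37 (NX), 11.7 (NY), 7.75 (QT) and 11.6 CPM (RM) in knockout libraries, against 19.3 (NX), 14.8 (NY), 29.3 (QT) and 16.7 CPM (RM) in control libraries. The genotypes did not overlap, and its log2 fold change of -1.03 (SE 0.32, unadjusted p = 0.00682) was not called (edgeR adjusted p = 0.9997). In this list Flrt2 was fitted higher and Lrrc4c lower at an unadjusted p under 0.05, both named after their values were seen.

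The scaffolds on both sides of the synapse had 0 members at an unadjusted p under 0.05 in the edgeR fit with genotype as the only term. All 20 postsynaptic scaffold genes were tested (median -0.10), and Shank1, a scaffold of excitatory synapses, had the smallest p at -0.49 (SE 0.24). The unadjusted p of Shank1 was 0.00603 in edgeR with the prefix as a block (adjusted p = 0.377). In limma-voom it was 0.0344, and Shank1 was not called in either. Of the presynaptic scaffold genes 17 of 19 were tested (median 0.002), and Bsn, which encodes the active zone protein bassoon, had the smallest p at -0.46 (SE 0.26). All 19 synaptic vesicle and release genes were tested (median -0.19). There Slc32a1 had the smallest p, at 43.4 ± 6.58 CPM in knockout and 63.9 ± 10.6 CPM in control libraries (log2 fold change -0.56, SE 0.21, n = 4 each) and with overlapping genotypes. Its exons are overlapped by Gm14205 on the opposite strand. All 15 RNA-binding genes of the neurexin splicing list were tested (median -0.01). Elavl4, a neuronal RNA-binding protein, was the one with the smallest p, at 101 (NX), 84.5 (NY), 121 (QT) and 105 CPM (RM) in knockout libraries, against 48.7 (NX), 80.7 (NY), 74.3 (QT) and 45.3 CPM (RM) in control libraries. Its genotypes did not overlap, and the log2 fold change of 0.72 (SE 0.23) was not called.

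**Figure D4:**
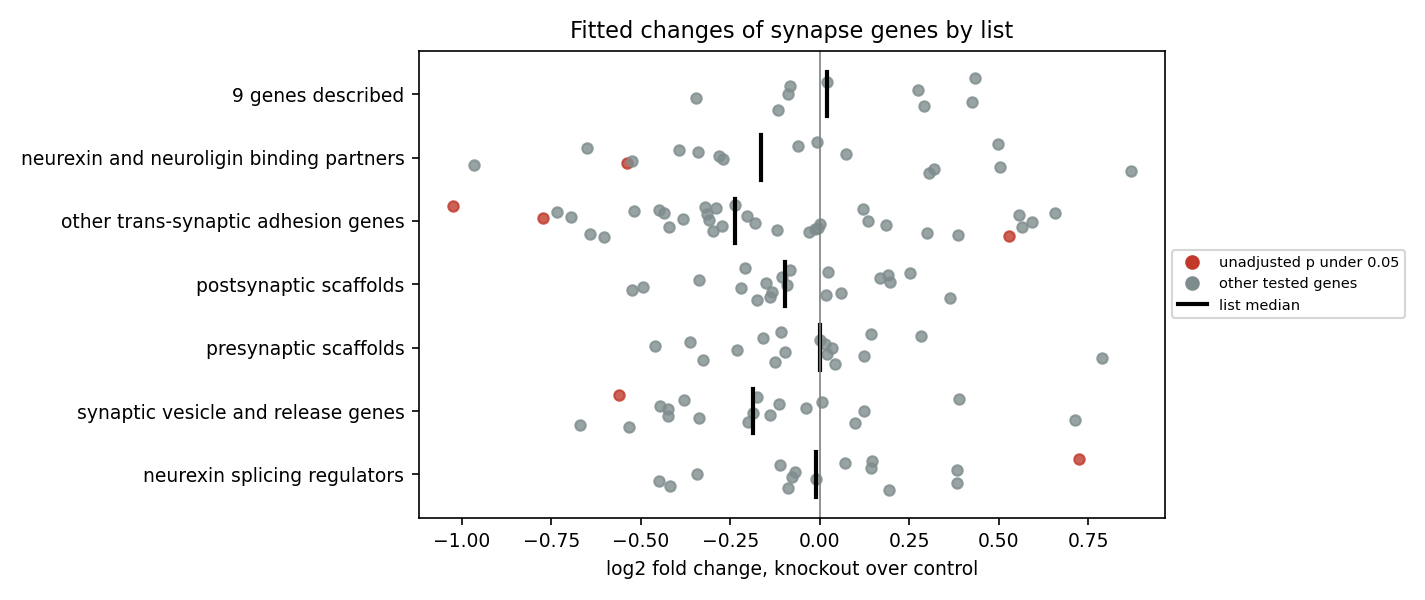
Fitted log2 fold change (knockout over control) of every tested gene in the 9-gene set and in 6 lists of synaptic genes, 1 point per gene, red where the unadjusted p was under 0.05, with a bar at the list median. The 9 genes centre on 0.02, the list medians run from -0.24 to 0.002, and no point was called over all genes.

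The genes whose profile over the 8 libraries was most like that of Nrxn3 and of Lrrtm2, the leading neurexin and LRRTM genes here, were sought among 9359 others whose average log2 CPM was 3 or more. Likeness was the root mean square difference of log2 CPM after centring each gene on its own mean. For Nrxn3 the 3 nearest were Clcn5, Pcdhgb4 and Crtc2, at 0.14 to 0.16. For Lrrtm2 they were Sucla2, Scamp1 and Pnck, at 0.11 to 0.13. None of the other 8 genes of the set was among the 3 nearest of either.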

How the data were processed

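The submitters' processing notes name Trimmomatic 0.33, RSEM 1.2.22, Bowtie2 and the mouse build mm10; the annotation release is not given in the sources used here. The deposited files hold RSEM expected counts, which need not be whole, and TPM, which is scaled to transcript length and library total, besides RSEM's transcript lengths in bases per the file headers. The deposited matrices and sample files were compared in 16 columns, with a largest difference of 0. The design text speaks of triplicates, while the labels give 4 samples per genotype, and all 8 were used.

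Expected counts were rounded and tested with edgeR 4.0.16 (R 4.3.3): filterByExpr, which left 14157 of 32542 genes, TMM factors, and the quasi-likelihood test with genotype as the only term. A row that names no gene was left out (at most 1.8e-05% of a library). P-values were adjusted by Benjamini-Hochberg over all tested genes, with a call at 0.05. P-values measure the spread between pools, which the labels do not say are independent litters. Differences in RSEM length were compared by an exact permutation test that ignored the prefix and was added after the files were seen. CPM and SE come from this fit, and log2 TPM used a pseudocount of 0.1. Alternatives used DESeq2 1.42.0, limma 3.58.1 (voom, and log2 TPM), other filters and factors, a prefix block and left-out libraries. The procedure was tested on simulated data. The labels' protocols name amplified double-stranded cDNA and a Nextera XT library, with no strand-specific step or molecular identifiers, so reads of overlapping genes on opposite strands were not separated. The genes, lists and tests were chosen with earlier results of these data known. Named genes are the 9 members, Tshz1, and from each list any called gene and the one with the smallest p, with the 3 nearest profiles to a family's leading gene; those of Nlgn3 are not reported here. Gene positions are from GENCODE M21 (GRCm38), the same assembly as mm10, matched by symbol.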

Additional observations from a re-analysis of the deposited data

Results flagged for a closer look

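In 3 of 18 groups of 4 libraries (9 genes in each genotype), 1 library stood apart from the other 3 by more than Dixon's critical value, where chance flags about 1 in 20 groups. Nrxn3 was high in the knockout RM library, at 1327 CPM. Nrxn2 was low in the knockout QT library, at 37.2 CPM. Lrrtm2 reached 108.3 CPM in knockout NX, the highest of its genotype, and 109 CPM in control NX. The cause of these values was not tested.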

How the results depend on the processing

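None of the 9 genes was called in any of 20 alternatives, nor at an adjusted p under 0.1, and no list of synaptic genes gained a call. Levels and family shares moved by less than 1 SD in each alternative run. All share runs and most level runs left out 1 of 8 libraries. That could hardly move a mean by 1 SD, so no conclusion on stability is drawn from them. The prefix was tried as a replicate block: 0 of the 9 and 28 genes over all were called, against 5 without it. Deviations from the genotype means correlated at 0.385 (NX), 0.303 (NY), 0.0658 (QT) and 0.450 (RM) within a prefix and at -0.352 to 0.0753 between prefixes. In 3 of 4 prefixes the knockout library correlated best with its own prefix, a hint from the data that libraries of a prefix are related. The labels do not say so, and QT missed the limit of 0.1 set for every pair, so the block was kept as an alternative. Over all genes, 19 were called without the filter, 39 by DESeq2, 2 by limma-voom, 10 on log2(TPM + 1), 11 at a threshold of 0.1, and 0 to 5 with 1 library left out. Leaving out both libraries of a prefix gave 3 (NX) or 0 (NY, QT and RM). Tshz1 stayed lower throughout but was not called on log2(TPM + 0.1) (-2.37), without the NY (-2.33), QT (-2.16) or RM libraries (-2.18), or with any single library left out other than knockout NX or control NY (-2.55 to -2.12 over all 8).

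The sign was unstable for small fitted changes. Lrrtm3 turned to -0.0057 with limma-voom and -0.24 without the QT libraries, and ran from -0.31 to 0.55 with 1 library left out. Nrxn2 turned to 0.15 and Nlgn3 to 0.015 without the QT libraries, and Lrrtm2 to 0.013 without the RM libraries. With 1 library left out, the ranges were -0.20 to 0.074 for Nrxn2, -0.046 to 0.42 for Nrxn3, -0.026 to 0.77 for Lrrtm1, -0.36 to 0.15 for Lrrtm2, 0.22 to 0.71 for Nlgn1 and 0.17 to 0.78 for Lrrtm4. Nlgn1, Nlgn2 and Lrrtm4 kept their sign in all 20. The shorter Lrrtm3 length in the knockout stayed at -618 to -403 bases with 1 library left out, with exact permutation p of 0.0286 to 0.143; these fits were chosen after seeing the data. The cause of each change was not tested.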
